A study of Mus musculus with 2 samples.

Results

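Promoters that gave a DNase I peak in replicate 1 and none in replicate 2 numbered 1065 in the hindbrain of the mouse embryo. They were found among 15272 protein-coding genes with a replicate 1 promoter peak, a share of 6.97%, and among 21938 protein-coding genes of the basic GENCODE M21 set, a share of 4.85%. The members were chosen by the peak calls of both libraries. A gene entered when the midpoint of a replicate 1 peak lay within 1 kb of one of its protein-coding transcription start sites (TSSs) and no replicate 2 peak midpoint lay within 1 kb of any of its TSSs. The missing replicate 2 peak, the replicate 1 score and the hotspots therefore describe the choice and are given with no test. With the read depth unknown, a missing peak call does not show that a promoter was closed. Promoters with a peak in both replicates numbered 14207, those with a peak in replicate 2 only 140, and those with no call 6526.

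DNase-seq maps the places where nuclear DNA is exposed enough for DNase I to cut it. It was applied here to whole hindbrain tissue of healthy B6NCrl mouse embryos at embryonic day 14.5, both sexes pooled. There was 1 group of 2 biological replicates and no other tissue, age, genotype or treatment. The labels tie both replicates to the same donor record and do not say how many embryos each one held.

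An active promoter in vertebrates usually lies in nucleosome-poor chromatin, and most promoters of broadly used genes overlap CpG islands that stay accessible in many cell types. Promoters of genes used in a few specialised cells are more often poor in CpG and accessible only in those cells. In a mixed tissue, a site that is accessible in few cells gives a weak signal, so fewer accessible cells and less accessibility per cell cannot be told apart. The hindbrain forms the cerebellum, pons and medulla, and its segments are patterned by Hox genes, which are expressed in an order along the body axis that follows their order in each cluster.

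The libraries differed in the number and height of their peaks. Replicate 1 held 263679 peaks on the assembled chromosomes with a median score of 47 (quartiles 35 and 70), and replicate 2 held 148804 with a median score of 30 (quartiles 21 and 48). Every peak was 150 bp wide. The score is the authors' own whole number, its meaning and scaling were not given in the sources used here, and the read depth is unknown. Scores of the replicates are therefore set side by side and not subtracted. As a check of the labelled tissue, promoters of all 16 pan-neuronal genes and all 15 neural progenitor genes on the lists used here had a peak in both replicates. So did 16 of 18 cerebellar lineage genes and 14 of 39 Hox genes. Of the lists from other tissues, 2 of 16 liver and endoderm genes, 1 of 14 lymphocyte genes and 7 of 13 epithelial genes did, so the epithelial list was set apart less clearly. The Hox share lay below the epithelial one, and 11 of 20 forebrain regulators also had a peak in both replicates. The check therefore does not set the hindbrain apart from other brain regions.

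The replicate 1 peaks of a few members show how different these promoters were in sequence. Each stretch below is the 150 bp peak in GRCm38.p6, read 5′ to 3′ on the strand of the gene, with CpG sites in capitals. The first 3 belong to the highest-scoring members with a CpG ratio within 500 bp of the TSS at or above the members' median, the next 3 to those below it. The peaks themselves did not follow that split. They held 10, 6 and 5 CpG sites in the first 3 and 10, 16 and 5 in the next 3. The last 4 were chosen after their values were seen, to show Hox genes, a hindbrain regulator and an olfactory receptor gene. In the order given they lie at chr14:122464836-122464985 (minus strand), chr2:32084696-32084845 (minus), chr11:24074356-24074505 (minus), chr11:100761856-100762005 (minus), chr7:80861096-80861245 (plus), chr2:24475576-24475725 (minus), chr11:96298976-96299125 (plus), chr2:74691716-74691865 (plus), chr6:88198576-88198725 (plus) and chr14:50348916-50349065 (minus).
Zic5: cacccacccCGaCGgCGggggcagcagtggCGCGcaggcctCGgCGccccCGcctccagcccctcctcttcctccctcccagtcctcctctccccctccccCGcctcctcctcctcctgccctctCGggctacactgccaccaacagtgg
Fam78a: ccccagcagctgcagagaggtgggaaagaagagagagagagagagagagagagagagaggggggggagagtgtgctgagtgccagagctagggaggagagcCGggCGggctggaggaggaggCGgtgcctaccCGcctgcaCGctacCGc
A830031A19Rik: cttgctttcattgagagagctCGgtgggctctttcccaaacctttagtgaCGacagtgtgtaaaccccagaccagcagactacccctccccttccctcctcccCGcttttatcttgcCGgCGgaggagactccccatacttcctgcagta
Hcrt: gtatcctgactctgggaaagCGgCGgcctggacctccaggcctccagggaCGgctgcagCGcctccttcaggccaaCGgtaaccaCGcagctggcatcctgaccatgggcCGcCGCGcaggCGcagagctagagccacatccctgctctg
Zscan2: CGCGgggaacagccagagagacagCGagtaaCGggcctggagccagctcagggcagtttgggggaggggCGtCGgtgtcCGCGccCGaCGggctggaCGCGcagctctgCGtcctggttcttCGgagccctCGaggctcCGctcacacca
Pax8: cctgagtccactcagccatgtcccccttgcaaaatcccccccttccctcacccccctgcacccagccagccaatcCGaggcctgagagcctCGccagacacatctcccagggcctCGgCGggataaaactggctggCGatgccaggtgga
Hoxb6: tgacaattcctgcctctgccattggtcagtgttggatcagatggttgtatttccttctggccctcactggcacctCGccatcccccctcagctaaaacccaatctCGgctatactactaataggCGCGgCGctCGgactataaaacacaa
Hoxd10: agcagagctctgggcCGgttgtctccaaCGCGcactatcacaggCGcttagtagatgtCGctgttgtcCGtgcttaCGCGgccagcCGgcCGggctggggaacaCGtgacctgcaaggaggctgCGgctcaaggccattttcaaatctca
Gata2: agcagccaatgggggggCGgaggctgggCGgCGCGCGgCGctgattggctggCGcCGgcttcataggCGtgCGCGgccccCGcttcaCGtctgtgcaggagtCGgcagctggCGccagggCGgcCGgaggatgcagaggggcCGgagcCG
Olfr735: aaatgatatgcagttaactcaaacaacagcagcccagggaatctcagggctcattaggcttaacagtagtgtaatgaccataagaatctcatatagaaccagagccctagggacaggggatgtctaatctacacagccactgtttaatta
The Gata2 peak held 19 CpG sites, the Hoxd10 peak 12, the Hoxb6 peak 6 and the Olfr735 peak 0. The Hoxb6 peak also held 1 match to TATAAA and 2 to CCAAT, and the Gata2 peak held 2 matches to CCAAT and 3 to GGGCGG, counting both strands. Across all members, the peaks held a median of 4 CpG sites, and 108 held none, against a median of 13 in promoters with a peak in both replicates.

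Members had low replicate 1 scores. The best promoter peak of a member scored a median of 39 (quartiles 30 and 51, range 10 to 118), against a median of 130 (quartiles 109 and 140) at promoters with a peak in both replicates. A score at or above the replicate 1 median of 47 was reached by 346 members (32.5%, 95% Wilson interval 29.7% to 35.4%), against 98.1% of the promoters with both peaks. Of genes whose best replicate 1 peak scored under 20, 61 of 67 were members (91.0%). Of those scoring 40 to 49, 220 of 422 were (52.1%). Of those scoring 70 to 79, 38 of 523 were (7.27%), and of those scoring 100 to 119, 4 of 2049 were (0.195%). None of the 9347 genes scoring 120 to 150 was a member, and a count of 0 allows a share of up to 0.0321% taken as 3 counts of the total, or 0.0411% as the upper Wilson limit. Where both replicates had a peak and replicate 1 scored 40 to 59, the replicate 2 score had a median of 26 (quartiles 22 and 31). Where replicate 1 scored 20 to 39, it had a median of 19 (quartiles 15 and 23), with the median below the lower quartile of all replicate 2 peaks. When replicate 1 was held to as many peaks as replicate 2 by taking its highest scores, 402 members were left, with a median score of 54. All Wilson intervals here cover counting error over genes only, and genes are not replicates.

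**Figure D1:**
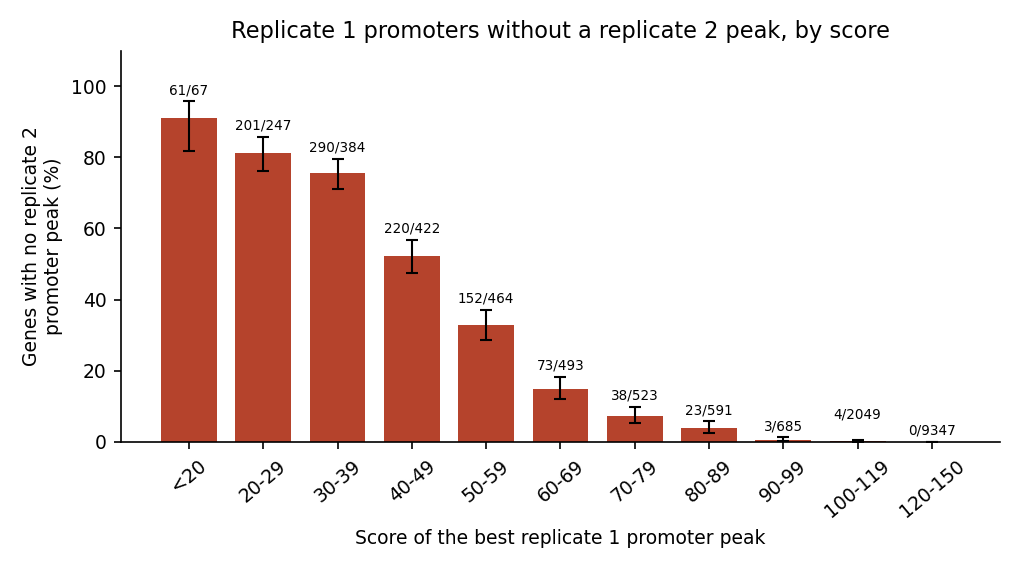
Share of genes with no replicate 2 promoter peak (y axis, percent) by the score of the best replicate 1 promoter peak (x axis), with 95% Wilson intervals and the number of members over the number of genes above each bar. The share was 91.0% under a score of 20, 52.1% at 40 to 49 and 0.195% at 100 to 119.

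The make-up of the members differed by score. The 68 members scoring 70 or more had a median CpG observed/expected ratio of 0.588. Of these, 13 belonged to 9 families of developmental regulators (19.1%), 7 of them being Hox genes. The families were the Hox, forkhead, SOX, T-box, GATA, paired-box, LIM homeobox, NK homeobox and basic helix-loop-helix genes. The 262 members scoring below 30 had a median ratio of 0.187, held no gene of these families and held 54 chemosensory receptor genes (20.6%). The 735 members in between had a median ratio of 0.315, with 28 regulators of these families (3.81%) and 22 chemosensory receptors (2.99%). At like scores, regulators were 13 of 61 members scoring 70 to 89 (21.3%), against 28 of 1053 promoters with both peaks (2.66%). At scores of 30 to 69 they were 3.81% of members, against 26 of 1028 promoters with both peaks (2.53%). Below 30, chemosensory receptors were 20.6% of members, against 4 of 52 promoters with both peaks (7.69%). More than 1 replicate 1 peak lay in the window of 63.2% of the first group, 32.8% of the middle group and 12.2% of the lowest.

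Of the 10 members with the highest scores, 4 had a replicate 2 peak or hotspot over the same peak, near the edge of the window. Hcrt, which encodes the orexin neuropeptides, scored 118 with a peak 997 bp downstream of its TSS, and that peak overlapped a replicate 2 peak of score 84 whose midpoint lay 1017 bp from the TSS. The peak of Fam78a (score 103, 988 bp upstream) overlapped a replicate 2 peak of score 45 at 1008 bp, and the peak of Fes, a tyrosine kinase gene (score 95, 988 bp downstream), overlapped one of score 80 at 1008 bp. The peak of Zscan2 (score 106, 937 bp upstream) lay wholly inside a replicate 2 hotspot but overlapped no replicate 2 peak, the nearest midpoint being 1217 bp from the TSS. The other 6 had no replicate 2 hotspot in any promoter window. They were Zic5, a zinc-finger regulator of the neural tube and its crest (score 111), A830031A19Rik (99), Eya2, a transcriptional coactivator of the eyes-absent family (94), Hoxd4 and Hoxb6 (88 each), and Pax8, a paired-box factor of the midbrain-hindbrain boundary (87). The nearest replicate 2 peaks lay 2066 bp from the TSS of Zic5, 1437 bp from that of A830031A19Rik, 1487 bp from that of Eya2 and 1173 bp from that of Pax8. In the whole set, the best peak of 8 members overlapped a replicate 2 peak (0.751%).

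At the distance limits, the members just inside the limit of 1 kb to a replicate 1 peak were Cidec and Gm17490 at 993 bp and Trp63 at 992 bp. Enthd1, Etv2 and Mnx1, each with its nearest replicate 1 peak at 1001 bp, fell just outside. The replicate 2 limit was passed most narrowly by Chrm5 (1002 bp), Dnmt3l (1004 bp) and Fam78a (1008 bp). Foxi3 (1000 bp), D830030K20Rik and Gm572 (994 bp each) had a replicate 2 peak just inside and were not members. A replicate 2 peak lay between 1 and 2 kb from a TSS of 154 members (14.5%), and the nearest one lay over 10 kb away for 439 (41.2%).

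Replicate 2 hotspots, the wider regions of enriched cutting in the authors' list, were almost absent from member promoters. A replicate 2 hotspot reached within 1 kb of a TSS in 32 members (3.0%, 2.14% to 4.21%), and 1033 members had none. The share was 1.92% (1.61% to 2.28%) at promoters with no call and 100% at promoters with both peaks. All 148804 replicate 2 peaks touched a replicate 2 hotspot, so a promoter with a replicate 2 peak nearly always has hotspot cover as well, and the measures are not independent. The best replicate 1 peak was touched by a replicate 2 hotspot in 9 members and lay wholly inside one in 5, which were Hcrt, Zscan2, Fam78a, Fes and Chrm5, a muscarinic acetylcholine receptor gene. At Ttr, which encodes the thyroxine carrier transthyretin made by choroid plexus, 47.3% of the peak was covered. The 32 members with a replicate 2 hotspot had a median replicate 1 score of 54.5, against 38 for the 1033 without.

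In replicate 1 itself, every member had a hotspot in the window, but a weak one. The hotspot with the highest −log10 q-value in the window had a median of 3.24 (quartiles 2.16 and 5.30). The cap of 100 that the authors' values reach was met at 188 members (17.7%), against 96.6% of promoters with both peaks. Replicate 1 hotspots covered a median of 11.8% of a member's window (quartiles 7.60% and 20.5%), against 65.9% (49.2% and 80.9%) at promoters with both peaks. The best peak lay wholly inside replicate 1 hotspots in 702 members (65.9%), against 98.5%.

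Member peaks were more scattered around the TSS. The best peak was centred within 100 bp of the TSS in 409 members (38.4%), against 65.6% of promoters with both peaks, and over 500 bp away in 264 (24.8%), against 7.65%. It lay upstream of the TSS in 52.2%, against 70.6%. A single replicate 1 peak filled the window of 749 members (70.3%), against 19.7%. The most replicate 1 peaks were held by Gria3, which encodes an AMPA receptor subunit (7 peaks), and by Hoxd4, Plce1 and the serotonin receptor gene Htr2c (6 each). At 79 members (7.42%) a TSS of another gene lay within 1 kb of the best peak, against 28.4% of promoters with both peaks. The 1065 members shared 1053 distinct best peaks, so a few neighbouring genes were counted through the same peak. Repeat-masked sequence was absent from 63.0% of member peaks, against 72.1%.

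Member promoters were poor in CpG. The ratio of observed to expected CpG in the 500 bp on either side of the TSS had a median of 0.286 (quartiles 0.180 and 0.472), against 0.731 (0.588 and 0.842) at promoters with both peaks. It was 0.208 at the 140 promoters with a replicate 2 peak only and 0.165 at those with no call. GC content had a median of 52.3% at members, 59.6% at promoters with both peaks and 44.9% at promoters with no call. A ratio below 0.3 was found at 554 members (52.0%, 49.0% to 55.0%), against 4.99% of promoters with both peaks, and a ratio of 0.6 or more at 166 (15.6%, 13.5% to 17.9%), against 73.6%. The highest ratios among members belonged to Barhl2 (1.07), a homeobox gene of spinal and retinal neurons, Zyg11a (1.00), Phf10 (0.98), Fgfr1op (0.98) and Vax1 (0.95). The lowest were olfactory receptor genes, with a ratio of 0 at Olfr1189, Olfr449, Olfr693 and Olfr488.

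**Figure D2:**
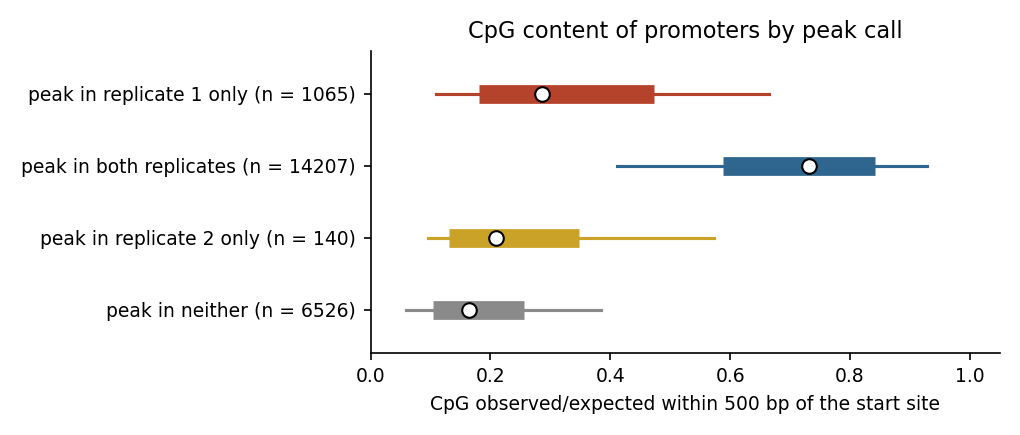
Ratio of observed to expected CpG in the 500 bp on either side of the TSS (x axis) for genes grouped by promoter peak call (rows). Circles are medians, thick bars run between the quartiles and thin lines between the tenth and ninetieth percentiles; the median was 0.286 for replicate 1 only and 0.731 for both replicates.

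When all genes were cut into 10 equal classes of CpG ratio, the share of replicate 1 promoters with no replicate 2 peak was 63.9% in the lowest class (115 of 180) and 0.645% in the highest (14 of 2170). The members themselves were most numerous in classes 3 (254) and 4 (235), where a replicate 1 peak was commoner than in the lowest. Score moved with CpG content, so the classes were also split by score. Among genes scoring 30 to 49, 71.9% of CpG-poor promoters (ratio below 0.3) were members, against 60.6% at a ratio of 0.3 to 0.6 and 44.1% at 0.6 or more. Among genes scoring 50 to 69 the shares were 31.5% (26.0% to 37.7%), 19.2% and 22.98% (18.6% to 28.0%), and among those scoring 70 to 89 they were 6.02%, 4.33% and 6.48%, with overlapping intervals. Among genes scoring 90 to 150 only 7 were members, and the shares were 0.787% (0.216% to 2.82%), 0.142% and 0.0206% (0.00565% to 0.0751%).

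**Figure D3:**
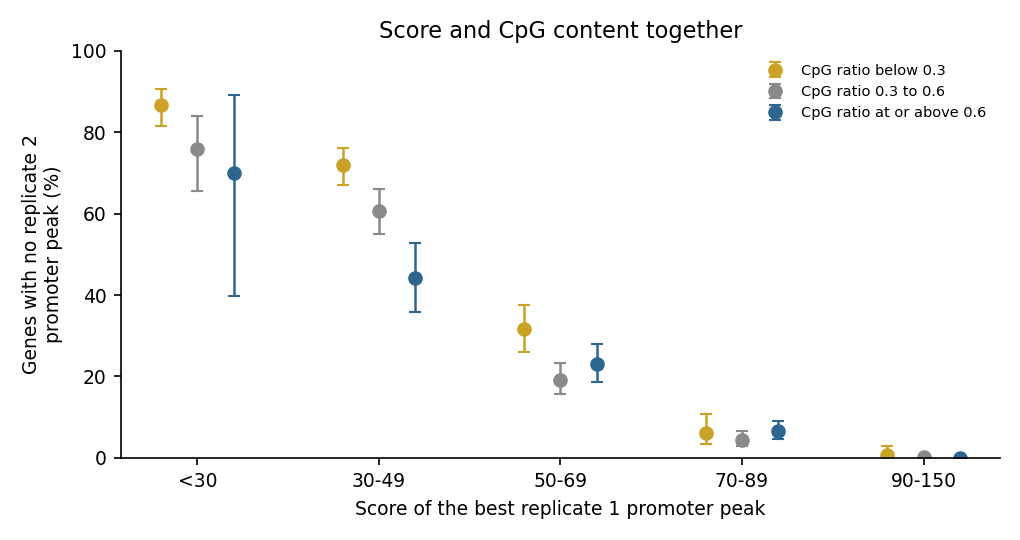
Share of genes with no replicate 2 promoter peak (y axis, percent, with 95% Wilson intervals) by replicate 1 score (x axis) and CpG ratio (colours). At scores of 30 to 49 the share was 71.9% in CpG-poor and 44.1% in CpG-rich promoters, and at 70 to 89 it was 6.02% and 6.48%.

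Short sequence motifs were counted on both strands from 250 bp before to 50 bp after the assigned TSS, as letters and not as bound sites. GGGCGG, the core bound by SP and KLF factors, was found at 31.2% of members (28.5% to 34.0%), against 66.1% of promoters with both peaks and 47.2% of all promoters. CCGGAAG, an ETS core, was found at 2.25%, against 16.7% and 11.7%. GCATGCGC, part of the NRF1 palindrome, was found at 0.845%, against 5.14% and 3.93%, and TGACGTCA, the cyclic AMP response element, at 0.563%, against 3.55% and 2.61%. Each of these 4 contains at least 1 CpG, which members hold less often. TATAAA was found at 15.7% of members (13.62% to 17.99%), against 6.66% and 12.1%. AGATAA, which GATA factors bind, was found at 13.1%, against 5.74% and 9.52%, CAGCTG, an E-box, at 19.6%, against 14.9% and 15.5%, and TAATTA, a homeodomain core, at 4.88%, against 2.40% and 4.95%. CCAAT was found at 34.4%, against 37.8% and 38.6%, ACAAAG, a SOX core, at 16.8%, against 12.8% and 16.8%, and the CTCF consensus at 0.282%, against 0.528% and 0.360%. Of the motifs without a CpG, the TATA box, the GATA core and the E-box were thus commoner at members than at all promoters, and the CCAAT box was rarer. Promoters with no call held TATAAA (23.4%) more often than members did. They also held the GATA core more often, at 17.1%, and it was found at 15.7% of promoters with a replicate 2 peak only.

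Among Hox genes, the calls followed the paralogue groups. Of 39 Hox genes, 29 had a replicate 1 promoter peak and 15 of these were members (51.7%, 34.4% to 68.6%), beside 6.97% of all genes with a replicate 1 promoter peak. Of the 15 genes of paralogue groups 1 to 5, which pattern the hindbrain and neck, 14 had a replicate 1 peak, and only Hoxb1 and Hoxd4 were members. Of the 24 genes of groups 6 to 13, which pattern the trunk, limbs and tail, 15 had a replicate 1 peak and 13 were members, all but Hoxa10 and Hoxc10. In groups 6 to 8, all 6 genes with a replicate 1 peak were members.

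The replicate 1 scores of the Hox members were 88 at Hoxb6 and Hoxd4, 84 at Hoxb8, 83 at Hoxa6, 79 at Hoxd10, 77 at Hoxb9 and 74 at Hoxb7. They were 67 at Hoxd9, 63 at Hoxd13, 61 at Hoxa7, 58 at Hoxc8 and 56 at Hoxb13, and 49 at Hoxb1 and Hoxc13 and 35 at Hoxa13. None had a replicate 2 hotspot in the window, and the nearest replicate 2 peak lay between 2060 bp (Hoxb6) and 42832 bp (Hoxc13) from the TSS. The 14 Hox genes with both peaks scored 70 to 133 in replicate 1 and 36 to 96 in replicate 2. The ranges overlapped: Hoxa10 (70), Hoxc10 (71) and Hoxd1 (82) had lower replicate 1 scores than Hoxb6 and Hoxd4 and still had replicate 2 peaks, scoring 54, 49 and 48.

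The Hox share was also above that of genes of like score. Among the 15 Hox genes with a replicate 1 score of 50 to 89, 12 were members (54.8% to 93.0%), against 286 of all 2071 genes in that range (13.8%, 12.4% to 15.4%). The share of all genes fell within the range, from 32.8% at scores of 50 to 59 to 3.89% at 80 to 89. With the matched number of peaks, 14 of 28 Hox genes with a replicate 1 peak were members, beside 2.79% of all such genes. Neighbouring Hox genes share chromatin and are not independent, so the interval understates the error. Hox members also formed 3 of the 4 runs of 4 or more members with neighbouring TSSs no more than 50 kb apart: Hoxb9 to Hoxb6, Hoxd13, Hoxd10, Hoxd9 and Hoxd4, and a run of Hoxa6, Hoxa7, Hoxa13 and 5730596B20Rik. The fourth was made of the protocadherin genes Pcdhgb1, Pcdhgb4, Pcdhgb5 and Pcdhga9 (scores 38 to 54). In all, 172 members had another member within 50 kb. With the comprehensive annotation Hoxa7 is no longer a member.

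**Figure D4:**
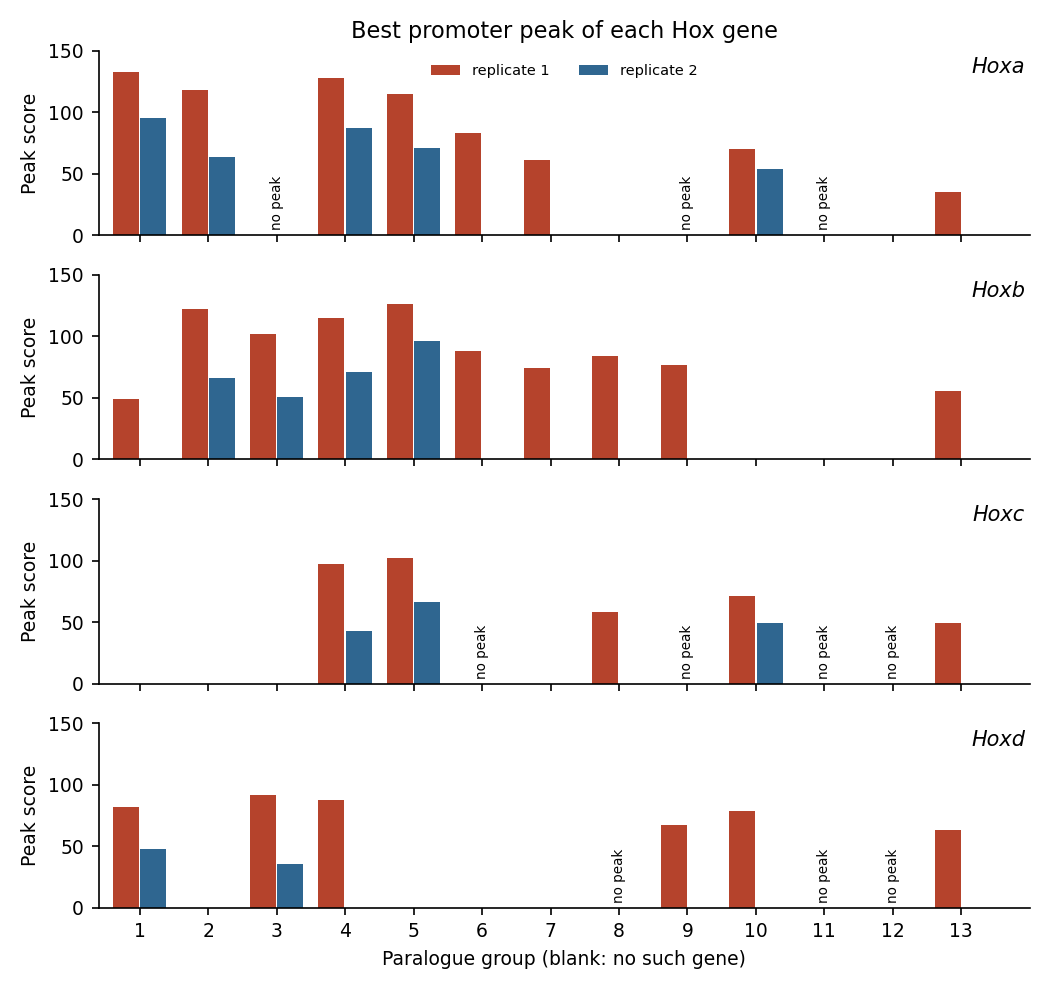
Score of the best promoter peak (y axis, the authors' score) of each Hox gene in replicate 1 (left bar) and replicate 2 (right bar) by paralogue group (x axis), 1 panel per cluster. Of groups 6 to 13, 13 of 15 genes with a replicate 1 peak had no replicate 2 peak, against 2 of 14 in groups 1 to 5.

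Genes of monoaminergic and cholinergic neurons, which lie in brainstem nuclei such as the raphe, the locus coeruleus and the cranial motor nuclei, were also frequent. Of 20 listed genes, 16 had a replicate 1 promoter peak and 9 were members (56.3%, 33.2% to 76.9%). The transcription factor genes were Gata2 (score 72) and Gata3 (70), which act in serotonergic neuron precursors, Tbx20 (69) of branchial motor neurons, Nkx2-2 (55) of ventral progenitors and Fev (51), which sets serotonergic identity. The genes of transmitter handling were the noradrenaline transporter Slc6a2 (56), the vesicular acetylcholine transporter Slc18a3 (51), choline acetyltransferase Chat (46) and aromatic amino acid decarboxylase Ddc (46). Genes with both peaks included Isl1, Tph2, Lmx1b, Slc18a2, Slc5a7 and Slc6a4, with replicate 1 scores of 112 to 51 and replicate 2 scores of 65 to 25. Of the 11 genes scoring 50 to 89, 7 were members (63.6%, 35.4% to 84.8%), beside 13.8% of all genes in that range. The share of all genes was 32.8% at scores of 50 to 59. Gata3 had a replicate 2 hotspot in its window and the other 8 had none. Chat and Ddc are no longer members with the comprehensive annotation. The Chat peak also lies within 1 kb of the Slc18a3 TSS, so these members are not independent. Gata2, Gata3, Tbx20 and Nkx2-2 are counted again in the GATA, T-box and NK homeobox families given below. A high share was not particular to these neuron genes. The heart and mesoderm list held 5 members of 8 genes with a replicate 1 promoter peak (62.5%, 30.6% to 86.3%), and 3 of 4 at scores of 50 to 89. Of these 5, Gata6, T and Tbx5 also belong to the GATA or T-box family, so the lists are not separate findings.

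Other regulators of brain patterning were mixed, and their counts stand beside 6.97% of all genes with a replicate 1 promoter peak. Of the midbrain-hindbrain boundary genes, Pax8 (87), the signal Wnt1 (57) and Pax5 (49) were members, and En1, En2, Gbx2, Otx2, Pax2 and Spry1 had both peaks, 3 of 9 in all (33.3%). Of the forebrain regulators, the distal-less genes Dlx6 (85), Dlx2 (77) and Dlx5 (66) and the eye-field gene Rax (46) were members, 4 of 15 (26.7%). At scores of 50 to 89 forebrain regulators held 3 of 10 (10.8% to 60.3%) and boundary genes 2 of 3 (20.8% to 93.9%). The forebrain interval takes in the 13.8% of all genes in that range. Of 18 cerebellar lineage genes 2 were members (11.1%, 3.10% to 32.8%), Barhl2 (82) and the Purkinje cell gene Pcp2 (37). Evx1 (65) and the progenitor-domain gene Dbx1 (41) were the 2 members of 14 interneuron genes with a replicate 1 peak. No LIM homeobox gene (0 of 12) and no SOX gene (0 of 18) was a member. The upper Wilson limits were 24.2% and 17.6%, which take in the overall share. At scores of 50 to 89 the counts were 0 of 5 and 0 of 6, with upper limits of 43.4% and 39.03% that take in the 13.8% of all genes there. Members made up 41 of the 167 genes with a replicate 1 peak in the 9 regulator families, against 6.97% over all genes. They were 3.85% of the members, against 0.887% of promoters with both peaks.

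Members were also counted in families of regulators with roles inside and outside the nervous system, beside the overall 6.97%, or 13.8% at scores of 50 to 89. They were 3 of 4 GATA genes (Gata6 81, Gata2 72, Gata3 70), 6 of 15 T-box genes (among them Tbx20 69, Tbx2 65 and the mesoderm gene T 51), 4 of 8 paired-box genes (Pax8, Pax7 60, Pax5 and Pax4 35) and 4 of 8 NK homeobox genes (Nkx1-1 58, Nkx1-2 57, Nkx2-2 55, Nkx3-2 53). Among markers of other cell types, endothelial genes held 5 of 11: the ETS factor Erg (75), Tie1 (42), Esam (36), the angiopoietin receptor Tek (35) and Robo4 (28). Erythroid genes held 3 of 5, among them the erythropoietin receptor Epor (76) and Klf1 (48). Myeloid genes held 3 of 6: the complement genes C1qb (50) and C1qa (49) and Spi1 (24), and germ-line genes held 3 of 4 (Dmrt1 60, Taf7l 48, Tdrd1 34). These lists are short, and their intervals are wide: for the endothelial list 21.3% to 72.0%. At scores of 50 to 89, members were 3 of 3 GATA, 4 of 5 NK homeobox, 3 of 7 T-box and 2 of 3 paired-box genes. The smallest of their lower limits was 15.8% (T-box). Within that range the share of all genes was 32.8% at 50 to 59, 14.8% at 60 to 69 and 3.89% at 80 to 89. The 4 NK homeobox members scored 53 to 58, where it was 32.8%. The 7 T-box genes scored 51 to 69, and their interval takes in 32.8%. A T-box share above that of genes of like score was therefore not shown. In the range of 50 to 89, endothelial genes held 1 of 5 (3.62% to 62.4%), and erythroid and myeloid genes 1 of 3 each (6.15% to 79.2%). Those intervals take in 13.8%. Germ-line genes held 1 of 1. The other endothelial members scored 28 to 42. In the score classes from 20 to 49, 52.1% to 81.4% of all genes were members.

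**Figure D5:**
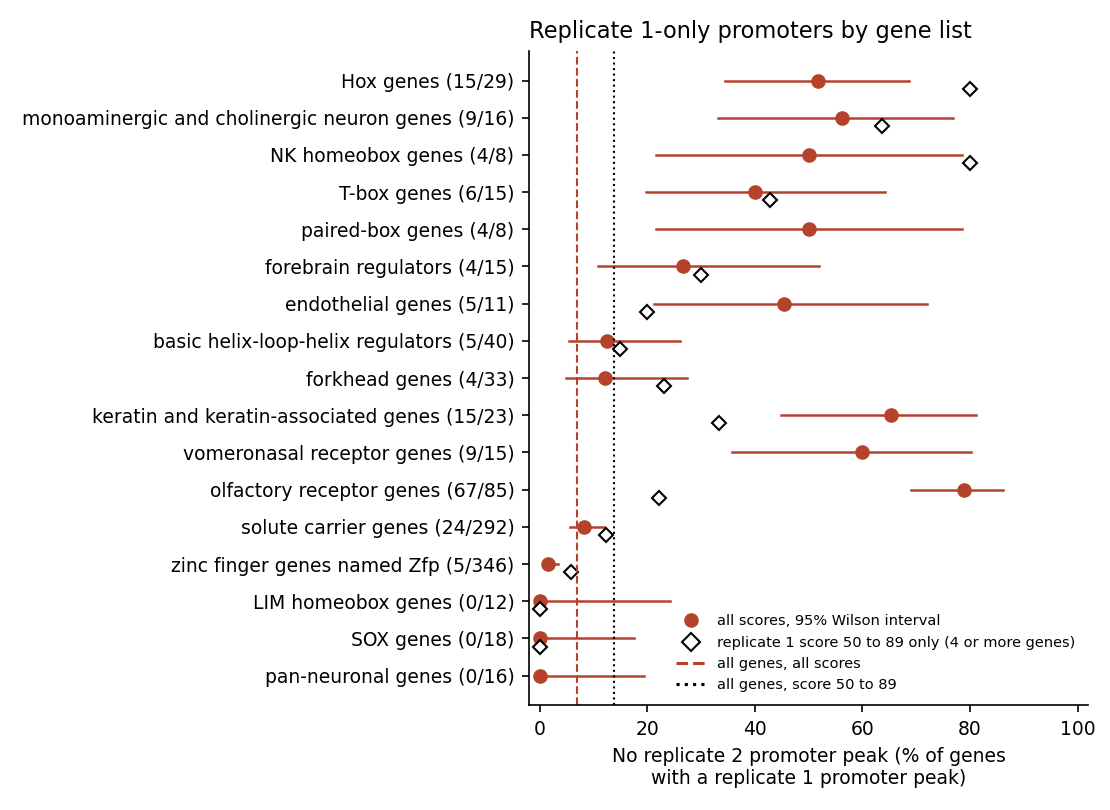
Share of genes without a replicate 2 promoter peak among those with a replicate 1 promoter peak (x axis, percent) for 17 of the gene lists (rows, with members over genes). Filled circles with lines are shares with 95% Wilson intervals, open diamonds the shares among genes scoring 50 to 89, and vertical lines the shares over all genes (6.97% and 13.8%); Hox genes stood at 15 of 29 and 12 of 15, olfactory receptor genes at 67 of 85 and 2 of 9.

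Olfactory receptor genes were the largest listed gene family among members. They encode the odorant receptors of the nose, and most of the 1093 annotated genes had no peak. Of 85 with a replicate 1 promoter peak, 67 were members (78.8%, 68.99% to 86.2%). Their scores ran from 13 to 58 with a median of 24, and 46 were below 30, where most genes of any kind were members. The highest were Olfr735 (58), Olfr273 (50) and Olfr536 (42). Of the 9 olfactory receptor genes scoring 50 to 89, 2 were members (22.2%, 6.32% to 54.7%), beside 13.8% of all genes; the difference from the Hox share was not tested. With the matched number of peaks, 2 of 14 olfactory receptor genes with a replicate 1 peak were members (14.3%), beside 2.79% of all such genes. Their median CpG ratio was 0.118, and 26 of the 67 peaks held no CpG. In the opposite direction, 18 olfactory receptor genes had a replicate 2 peak only. Vomeronasal receptor genes held 9 members of 15, all scoring 37 or less, and keratin and keratin-associated genes 15 of 23 (65.2%), with a median score of 29.

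Of the other families, solute carriers and potassium channels lay near the overall share of 6.97%, with 24 of 292 (8.22%) and 6 of 81 (7.41%). Shares were higher in several more: clustered protocadherins 7 of 52 (13.5%), collagens 9 of 35 (25.7%, with Col2a1 at 72 and Col22a1 at 70), serpins 8 of 16 and tumour necrosis factor family genes 9 of 25 (36.0%). The protocadherin interval, 6.68% to 25.3%, takes in the overall share. At scores of 50 to 89, protocadherins held 2 of 15 (13.3%), near the 13.8% of all genes there. Collagens held 4 of 18 (9.00% to 45.2%), serpins 2 of 5 (11.8% to 76.9%) and tumour necrosis factor family genes 2 of 11 (5.14% to 47.7%). These intervals take in 13.8%, so a share above that of genes of like score was not shown. Amine and acetylcholine receptor genes held 11 of 47 (23.4%), among them Htr2c (76), Chrm5 (70) and the dopamine receptor gene Drd5 (63). Of neuropeptide genes, Hcrt, Vip (62), oxytocin Oxt (41) and neurotensin Nts (32) were members, 4 of 19. Genes named only by a model number held 89 of 631 (14.1%). Zinc finger genes named Zfp held 5 of 346 (1.45%, 0.619% to 3.34%), and ribosomal protein (0 of 158), replication-dependent histone (0 of 55), housekeeping (0 of 14) and cell cycle genes (0 of 12) held none. The interval of 0 of 14 reaches 21.5%, which takes in the overall share. The lists together took in 404 members (37.9%), so most members belong to none of them.

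The surroundings of member promoters held distal peaks of both replicates in about the same proportion as other genes. Within 50 kb of the members' TSSs there were 8970 distal replicate 1 peaks and 5206 distal replicate 2 peaks, a ratio of replicate 2 to replicate 1 of 0.580. The ratio was 0.579 around promoters with both peaks (84328 in replicate 1 and 48797 in replicate 2) and 0.501 for all distal peaks (217771 and 109016). A peak near several genes of the same group counts once in that group, and a peak near genes of different groups counts in each. Around the 15 Hox members it was 0.484 (124 replicate 1 and 60 replicate 2 peaks), against 0.527 around the 14 Hox genes with both peaks (110 and 58), and around the 67 olfactory receptor members 0.621 (195 and 121). No distal replicate 1 peak lay within 50 kb of 57 members (5.35%), against 1.16% of promoters with both peaks. No distal replicate 2 peak lay there for 106 members (9.95%), against 4.67%. On chromosome X, 45 of 500 genes with a replicate 1 peak were members (9.00%, 6.79% to 11.8%), and on the autosomes the share ran from 4.01% on chromosome 12 to 9.71% on chromosome 15.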

How the data were processed

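For each replicate the authors deposited peaks and hotspots, made separately per library on mm10, per the labels and the deposited sample notes. The deposited peak score is a whole number of unstated scaling, and the deposited hotspot lists give a −log10 q-value per region with a cap of 100. The aligner, the peak caller and their thresholds were not given in the sources used here, and the files hold no read counts. A stricter threshold in either library would move promoters in and out of the set.

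Peaks on the assembled chromosomes were joined to TSSs of protein-coding genes (GENCODE M21 basic) by midpoint. A gene's score is that of its highest-scoring replicate 1 peak within 1 kb of a coding TSS, and the TSS nearest to that peak is the assigned one. CpG observed/expected and GC content were computed in GRCm38.p6, whose chromosome lengths contained every interval, within 500 bp of that TSS. Distal peaks lay over 1 kb from every TSS. Shares carry 95% Wilson intervals, and medians exact binomial ones. Python 3.11.15, numpy 2.4.6, pandas 2.3.3, scipy 1.17.1 and pysam 0.24.0 were used, and the calls were tested on simulated data. There was 1 group, so no test between conditions was possible and none was run.

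The members and the 64 gene lists and 11 motifs were chosen with earlier results of these data known. Genes named are the 10 with the highest scores, the 5 highest and lowest in CpG ratio, up to 4 per list (all, for lists given by symbol), those nearest the distance limits, those with the most peaks and the top scorers without a replicate 2 hotspot. Further Hox genes, the members wholly inside a replicate 2 hotspot and the sequences so marked were chosen after their values were seen. Alternatives changed the window, the annotation, the peaks admitted and the measures.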

Additional observations from a re-analysis of the deposited data

How the results depend on the processing

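The count of 1065 members stayed within 1.5 times under windows of 500 bp (1078) and 2000 bp (1238), under the other annotation choices and under overlap in place of midpoints. It was 402 when replicate 1 was held to as many peaks as replicate 2, taking the highest scores, and 346 with replicate 1 peaks at or above the median score only. The members that remained then were the higher-scoring ones: their median score was 54 and 57, their median CpG ratio 0.418 and 0.436, and 5.47% and 6.07% had a replicate 2 hotspot. With the matched number of peaks, members were 9 of 16 monoaminergic and cholinergic genes with a replicate 1 promoter peak (56.3%), against 2.79% of all such genes. The window moved the median score (41 at 500 bp, 37 at 2000 bp), the CpG ratio (0.336 and 0.254) and the share with a replicate 2 hotspot (7.88% and 1.86%). That share was 1.56% when any base of a peak in the window counted, 1.41% for hotspots at the cap, and 0% by construction when such promoters were barred. Leaving out the members whose peak overlaps a replicate 2 peak, chosen after seeing the data, left 1057 members and no value beyond its interval. No paired analysis was possible because there is 1 group, and neither replicate can be left out, as the rule needs both.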

Other observations

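The reverse case was rare. The 140 promoters with a replicate 2 peak only had replicate 2 scores with a median of 13 (quartiles 9 and 21), and the highest belonged to Ccdc78 (93) and Ccdc153 (70). They included the forebrain regulator Fezf2 (32), the NK homeobox genes Nkx2-5 (26), Nkx2-3 (25) and Nkx2-6 (22) and the T-box gene Tbx1 (28). Distal peaks within 50 kb of these promoters numbered 1018 in replicate 1 and 1033 in replicate 2, a ratio of replicate 2 to replicate 1 of 1.015.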
